A study of Homo sapiens with 8 samples.

Results

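The difference between Molm13 and THP1 cells in their transcriptional response to PRMT9 knockdown was measured from the 8 deposited RNA-seq libraries, which are all the libraries of the series. For each gene the quantity was the log2 fold change of shPRMT9 over shCtrl in THP1 minus the same log2 fold change in Molm13, so that a positive difference means a higher fold change in THP1. Of 57722 genes listed in the tables of both lines, 19288 passed the filter on low counts and were tested, and all of them were used. Molm13 and THP1 are human acute myeloid leukemia lines of monocytic type, and both carry a fusion of KMT2A (MLL). The 4 groups were Molm13 with a control shRNA (shCtrl, labelled WT), Molm13 with an shRNA against PRMT9 (shPRMT9), THP1 with shCtrl and THP1 with shPRMT9, each with 2 libraries of poly(A) RNA. All 8 libraries are labelled with Dox (doxycycline) induction, so the control groups carry the drug too. The library names of the THP1 samples contain OCI, a prefix used for other blood cancer lines, whereas the other labels and the paper give THP1. The labels do not say that the 2 libraries of a group came from separate cultures, so the p-values measure the spread between these libraries, which may be technical. Nor do they say whether the numbers 1 and 2 of shPRMT9 mark repeats of a single shRNA or different shRNAs. They were treated as replicates, and in the latter case the spread also holds the difference between shRNAs. The chi-square per gene between the 2 libraries of a group ran from 1.35 (Molm13 shPRMT9) to 2.18 (THP1 shPRMT9). Counting noise alone would give about 1, so the spread beyond it was small. The FDRs and standard errors below rest on this small spread, and variation between separate cultures was not tested.

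PRMT9 is an arginine methyltransferase that places symmetric dimethyl marks on substrates such as RNA-binding and splicing proteins. The functions followed below are programs that leukemia cells switch in response to stress or to innate immune signals. Interferon acts through its receptors on antiviral genes, HIF factors raise glycolytic and angiogenic genes when oxygen sensing is blocked, ATF4 supplies amino acids and tRNA synthetases, HSF1 supplies chaperones, SREBP supplies sterols and fatty acids, NRF2 supplies glutathione and redox enzymes, and E2F drives DNA replication.

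The libraries held 18720950 to 21241742 counts in Molm13 and 25127517 to 27356870 in THP1, and the scaling factors lay between 0.985 and 1.01. PRMT9, on chromosome 4 from 147637785 to 147684230 of hg38, was lower with shPRMT9 in both lines. Its level was 16.3 and 14.7 CPM (counts scaled to library size) in Molm13 shCtrl, 2.17 and 2.63 in Molm13 shPRMT9, 12.3 and 12.7 in THP1 shCtrl and 2.40 and 2.75 in THP1 shPRMT9. The log2 fold change was −2.68 ± 0.14 (SE) in Molm13 and −2.28 ± 0.13 in THP1, and their difference of 0.40 ± 0.22 did not pass the test (FDR 0.146). Of 12 myeloid markers, 11 in Molm13 and 12 in THP1 exceeded an RPKM of 1, with sums of 617 to 929 RPKM in Molm13 and 1380 to 2120 in THP1. None of 11 erythroid and megakaryocytic markers did so in either line, and of 11 B-cell markers 3 did in Molm13 and 2 in THP1. Each line has its own table and no label ties their processing together, so effects of the line cannot be told apart from those of preparation or of shRNA dose. In bulk RNA, fewer cells of a state and less RNA per cell also cannot be told apart.

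The response differed between the lines for 3428 genes, or 17.8% of those tested, by edgeR's quasi-likelihood test of the interaction (FDR below 0.05, a difference of more than 1.5-fold, and an RPKM above 1 in at least 1 library). The fold change was higher in THP1 for 1735 of them (9% of genes tested) and higher in Molm13 for 1693 (8.78%). More genes responded in Molm13, with 1829 up (9.48%) and 1875 down (9.72%), than in THP1, with 631 up (3.27%) and 391 down (2.03%), under the same limits within a line. Of 3289 genes that responded in Molm13 and not in THP1, the difference itself passed for 2025, and of 607 genes that responded in THP1 and not in Molm13 it passed for 299. Only those are called responders of a single line here. They comprised 979 genes that rose in Molm13 alone (5.08%), 1046 that fell in Molm13 alone (5.42%), 159 that rose in THP1 alone (0.824%) and 140 that fell in THP1 alone (0.726%). A further 50 genes rose in Molm13 and fell in THP1 (0.259%), and 14 fell in Molm13 and rose in THP1 (0.0726%; 8 without Molm13 shCtrl replicate 1 and 9 without Molm13 shPRMT9 replicate 1). Another 68 genes moved the same way with a larger change in Molm13 (0.353%) and 35 with a larger change in THP1 (0.181%). The remaining 937 (4.86%) differed between the lines although neither line alone passed its limits. In addition, 248 genes responded in both lines in the same direction with no called difference.

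Being called in a single line did not always mean expression in both. Of the genes that rose in Molm13 alone, 751 had an RPKM above 1 in both lines, and 516 of those changed by less than 1.2-fold in THP1. Of the genes that fell in Molm13 alone, 982 were expressed in both lines and 835 changed by less than 1.2-fold in THP1. For THP1 the corresponding counts were 55 of 119 genes that rose and 56 of 105 that fell. Across the 10818 genes expressed in both lines, the median log2 fold change was −0.05 in Molm13 and 0.00167 in THP1, and the median difference was 0.07. The log2 fold changes of these genes spread with an SD of 0.615 in Molm13 and 0.40 in THP1, and 57.9% had the same sign. Genes of low GC content had somewhat higher differences, with a median of 0.146 among genes with a GC content below 41.6% and −0.0277 among those above 55.7%, and the part of GC content in single genes was not tested.

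**Figure D1:**
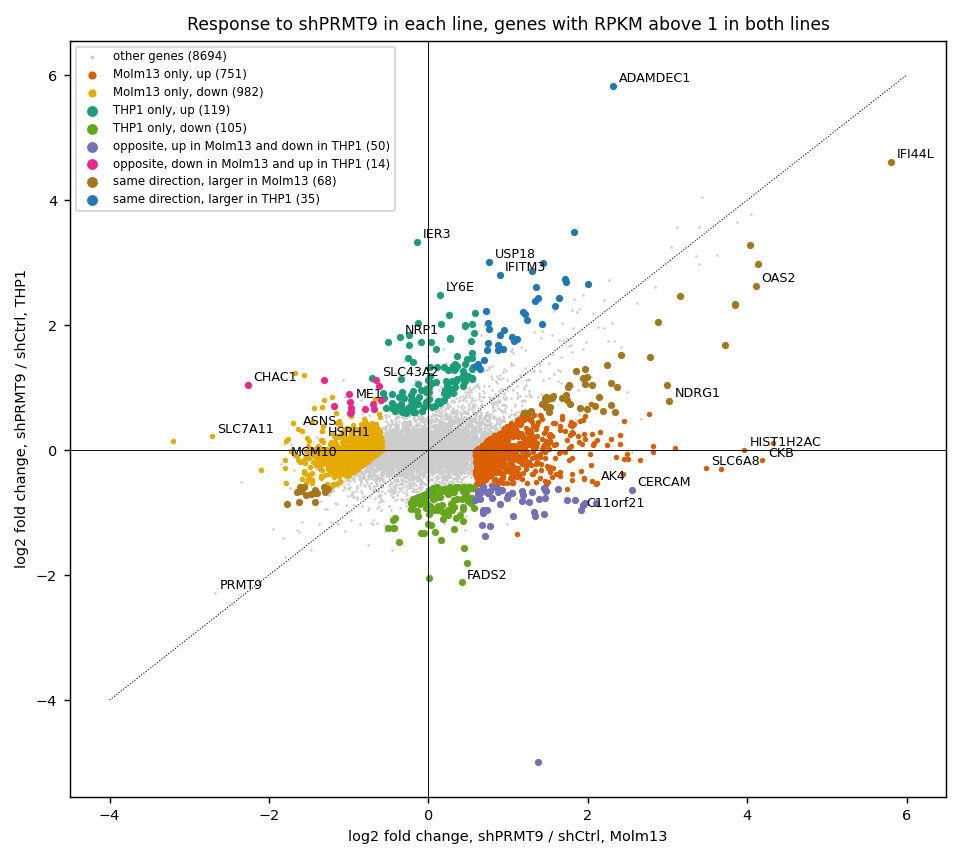
Each point is 1 of the 10818 genes with an RPKM above 1 in both lines, with the log2 fold change of shPRMT9 over shCtrl in Molm13 on the x axis and in THP1 on the y axis. Colors mark the classes of genes whose response differed, the dotted line marks equal responses, and the orange and yellow points along the horizontal axis are the 751 and 982 genes that rose or fell in Molm13 alone.

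Interferon-stimulated antiviral genes rose in both lines, and what differed was the size and the membership. Of 57 genes tested, 41 rose in Molm13 and 56 in THP1, and none fell. The response differed for 54.4% of them, with 23 higher in THP1 and 8 higher in Molm13. The median log2 fold change was 1.44 in Molm13 and 2.20 in THP1, and the median difference was 0.45, beside 0.03 over all genes tested (0.283 without Molm13 shPRMT9 replicate 2). In THP1 alone, 9 members rose, 14 rose more in THP1 and 8 rose more in Molm13.

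LY6E, a membrane protein that restricts virus entry, had the largest difference in the list. Its CPM was 77.9 and 77.2 in Molm13 shCtrl, 87.2 and 85.2 in Molm13 shPRMT9, 32.6 and 29.9 in THP1 shCtrl, and 173 and 177 in THP1 shPRMT9. The difference was 2.33 ± 0.06 (FDR 1.03e-51), and the change in Molm13 was only 0.15 on the log2 scale. PARP12, an antiviral ADP-ribosyltransferase, stood at 15.1 to 15.7 CPM in all 4 Molm13 libraries, whereas it went from 12.2 and 13.1 to 42.2 and 41.2 in THP1 (difference 1.69 ± 0.12, FDR 2.44e-23). USP18, which removes ISG15 from proteins and restrains interferon signaling, went from 3.43 and 2.91 to 5.92 and 4.93 CPM in Molm13 and from 6.07 and 6.47 to 50.8 and 50.9 in THP1. IFITM3, which blocks fusion of virus with the endosome, rose by 0.90 in Molm13 and 2.80 in THP1, and DDX58, the RNA sensor RIG-I, rose by 0.73 and 2.22. IFITM3 has close paralogs, and how the counting treated reads shared between such genes is not given in the sources used here.

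The opposite order was found for other members of the same list. OAS2, which makes oligoadenylates that activate RNase L, went from 7.49 and 8.01 to 131 and 136 CPM in Molm13 and from 95.4 and 98.5 to 594 and 602 in THP1. The log2 fold change was thus 4.11 in Molm13 and 2.62 in THP1 (difference −1.48 ± 0.08, FDR 3.32e-30), although the level with shPRMT9 was higher in THP1. IFIT2, an RNA-binding inhibitor of viral translation, rose by 3.84 and 2.32, OASL by 3.85 and 2.33, and IRF9, a transcription factor of the interferon response, by 1.9 and 0.68. EPSTI1 and IFI44L rose by 4.14 and 5.81 in Molm13 from shCtrl levels below 1 CPM, and by 2.98 and 4.61 in THP1. For IFI44L the call was lost without Molm13 shCtrl replicate 1. Each of these 6 genes had a lower shCtrl level in Molm13 than in THP1. So did USP18, which rose more in THP1, and the part of the shCtrl level was not tested.

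Some promoters of both kinds of interferon-stimulated gene carried the same short string, and stretches are shown only for genes that held it. The interferon-stimulated response element was searched as GAAA, any 2 bases and GAAA on both strands of the 300 bases around the RefSeq start of each gene (GRCh38.p14). It was present in 28 of 44 list members with a promoter in the table (63.6%), beside 346 of 11634 promoters of genes tested (2.97%) and 3.65% of all promoters in the table. Among the response classes it was found in 10 of 29 promoters of genes that moved the same way in both lines with the larger change in THP1 (34.5%), in 14 of 115 of those that rose in THP1 alone (12.2%), in 3 of 49 of those that moved the same way with the larger change in Molm13 (6.12%) and in 17 of 715 of those that rose in Molm13 alone (2.38%). The stretches below lie before the start, run 5′ to 3′ on the strand of the gene, and have the matching letters in capitals. IFITM3 (chr11:320866-320915, minus strand), PARP12 (chr7:140062952-140062981, minus strand) and ISG20 (chr15:88638927-88638976, plus strand) changed more in THP1 (for ISG20 the call was lost without Molm13 shCtrl replicate 2), and EPSTI1 (chr13:42992262-42992311, minus strand) and IFI44L (chr1:78620355-78620404, plus strand) changed more in Molm13.
IFITM3: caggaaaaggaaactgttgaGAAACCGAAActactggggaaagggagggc
PARP12: tttcgccggcccggggccgcTTTCGGTTTC
ISG20: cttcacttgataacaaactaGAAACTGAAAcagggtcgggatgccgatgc
EPSTI1: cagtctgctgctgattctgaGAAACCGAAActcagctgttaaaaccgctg
IFI44L: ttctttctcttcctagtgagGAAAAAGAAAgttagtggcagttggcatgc
In IFITM3 and EPSTI1 the matching letters were the same, and PARP12 holds the reverse complement of them. A match is a description of the sequence and not a shown binding site.

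Genes of MHC class I presentation, which load peptides for cytotoxic T cells, also moved further in THP1. Of 20 tested, 9 differed in favor of THP1, where the fold change was higher, and none in favor of Molm13, and the median log2 fold change was 0.31 in Molm13 and 0.64 in THP1. TAP2, a subunit of the peptide transporter, fell in Molm13 alone, from 35.8 and 37.6 to 18.9 and 18.5 CPM, and stood at 52.4 and 52.7 against 78.4 and 75.5 CPM in THP1, a change of 0.55 under the fold limit (difference 1.52 ± 0.09, FDR 2.51e-29). B2M, the invariant light chain, rose by 0.46 in Molm13, under the fold limit, and by 1.10 in THP1. Of 13 class II genes tested, 7 had an RPKM above 1 in both lines. The response differed for 23.1% of the 13, beside 17.8% of all genes tested, 1 in favor of THP1 and 2 in favor of Molm13. The latter included HLA-DMA, which edits class II peptides (1.19 against 0.19 in THP1).

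Some inflammatory genes rose in each line. Of 31 cytokines and chemokines tested, 12 had an RPKM above 1 in both lines. In Molm13 13 rose and in THP1 14, and 5 differed in favor of THP1 and 2 in favor of Molm13 (22.6%, beside 17.8% of all genes tested). TNF stood at 32.4 and 33.7 CPM in Molm13 shCtrl and 37.7 and 38 with shPRMT9, whereas in THP1 it rose from 4.17 and 4.88 to 11.9 and 10.9. CXCL8, a neutrophil chemokine, rose from 2.65 and 2.71 to 19.9 and 17.9 CPM in THP1 and stood at 0.539 to 1.32 CPM in Molm13. TGFB1, an immunosuppressive growth factor, rose in Molm13 alone (1.11, against −0.09 in THP1). Of 28 NF-kB targets tested, 12 rose in Molm13 and 14 in THP1, with medians of 0.62 and 0.67. The response differed for 39.3% of them, 8 in favor of THP1 and 3 in favor of Molm13. IER3, an early response gene, rose in THP1 alone, from 0.156 and 0.289 to 2.28 and 2.35 CPM, and stood at 1.64 to 2.09 CPM in the Molm13 libraries. RELB and NFKB2, the noncanonical NF-kB subunits, rose in both lines with the larger change in Molm13 (2.42 against 1.51, and 2.88 against 2.05). BIRC3, an inhibitor of apoptosis, rose from 0.245 and 0.153 to 3.86 and 4.41 CPM in Molm13 and from 1.79 and 1.38 to 10.3 and 8.66 in THP1. It counted as a THP1 responder because its RPKM stayed below 1 in Molm13, although its fold change was higher there.

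Many myeloid differentiation genes rose in each line. Of 48 monocyte and macrophage genes tested, 20 rose in Molm13 and 23 in THP1, and 33.3% differed, 6 in favor of THP1 and 10 in favor of Molm13. S100A8 and S100A9, the calprotectin subunits, rose in THP1 alone. S100A8 went from 7.16 and 8.46 to 26.4 and 27.1 CPM there and from 28.6 and 32.0 to 36.0 and 36.9 in Molm13 (difference 1.51 ± 0.11, FDR 2.08e-21). CYBB, the catalytic subunit of the phagocyte oxidase, rose from 15.7 and 16 to 138 and 138 CPM in THP1 and stayed below 4 CPM in Molm13. FCGR2A, an activating Fc receptor, rose in Molm13 alone, from 53 and 54.0 to 144 and 145 CPM, and was at 36.2 to 37.9 CPM in all THP1 libraries. CSF1R, the M-CSF receptor, rose in both lines with the larger change in Molm13 (2.05 against 1.04).

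Of 36 primary granule and progenitor genes tested, which mark the immature stage, 5 fell in THP1, beside 2.03% of all genes tested. In Molm13 4 rose, beside 9.48% of all genes tested. The response differed for 7 members (19.4%, close to the 17.8% of all genes tested), each with the higher fold change in Molm13. CTSG, the granule protease cathepsin G, fell in THP1 from 185 and 182 to 79.5 and 75.5 CPM, with a change of −0.45 in Molm13 that missed the fold limit. PRTN3, proteinase 3, fell by 0.67 in THP1 and stood at 202 and 204 against 252 and 254 CPM in Molm13. CFD, complement factor D, moved in opposite directions, from 87.7 and 88.3 to 156 and 154 CPM in Molm13 and from 112 and 108 to 72.8 and 73.9 in THP1 (difference −1.40 ± 0.06, FDR 3.84e-39). AZU1, azurocidin, rose in Molm13 alone (0.75) with a change of −0.43 in THP1. MPO, a myeloid marker, was lower with shPRMT9 in both lines. Its RPKM was 17.2 and 17.3 against 11.4 and 12 in Molm13, and 2.34 and 1.95 against 1.21 and 1.18 in THP1. The HOXA cluster, which KMT2A fusions keep on, held 7 genes tested, of which 1 rose in Molm13 and none in THP1.

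HIF target genes rose mostly in Molm13, and some fell in THP1. Of 33 HIF targets outside glycolysis tested, 21 had an RPKM above 1 in both lines. In Molm13 18 rose, beside 9.48% of all genes tested. In THP1 3 rose and 5 fell, beside 3.27% and 2.03% of all genes tested. The response differed for 51.5%, with 16 higher in Molm13 and 1 higher in THP1, and the median log2 fold change was 0.98 in Molm13 and −0.08 in THP1 (median difference −1.31, or −0.82 over members with at least 1 CPM in all 8 libraries). In Molm13 alone 10 rose, and 3 rose in Molm13 and fell in THP1. AK4, a mitochondrial adenylate kinase, went from 6.37 and 7.04 to 28.9 and 28.7 CPM in Molm13 and from 29.8 and 28.1 to 20.1 and 19.6 in THP1, where the change of −0.54 stayed under the fold limit. MXI1, a repressor that competes with MYC for MAX, rose from 92.3 and 96.0 to 232 and 230 CPM in Molm13 and fell from 36.3 and 36.6 to 23.4 and 22.3 in THP1 (difference −1.98 ± 0.07, FDR 1.77e-43). ZNF395 moved in the same opposite way (1.46 and −0.65), as did BNIP3, a mitophagy receptor (0.65 and −0.78). NDRG1 rose in both lines, by 3.02 in Molm13 and 0.79 in THP1.

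Glycolytic genes also rose mostly in Molm13. Of 30 tested, 14 rose in Molm13 and 3 in THP1, 13 differed with a higher fold change in Molm13, and 10 rose in Molm13 alone. ALDOC, an aldolase, went from 13.3 and 14.6 to 87.0 and 88.0 CPM in Molm13, whereas the 4 THP1 libraries lay between 5.5 and 6.62 CPM (difference −2.81 ± 0.14, FDR 4.71e-32). PFKFB4, which makes the activator of phosphofructokinase, rose in both lines, by 3 in Molm13 and 1.04 in THP1. SLC2A3, a glucose transporter, went from 156 and 156 to 308 and 325 CPM in Molm13 and was below 1 CPM in all THP1 libraries. SLC16A1, the lactate transporter, was the member called the other way (0.61 ± 0.05), and that call was lost under 12 of the alternatives. The HIF core was searched as ACGTGC on both strands of the same windows. It occurred in 11 of 26 HIF targets outside glycolysis (42.3%) and 7 of 28 glycolytic genes (25%), beside 8.52% of genes tested, and in 49 of 715 genes that rose in Molm13 alone (6.85%), a share no higher than the background. The stretches of AK4 (chr1:65147438-65147483, plus strand), ENO2 (chr12:6914442-6914487, plus strand) and GBE1 (chr3:81761732-81761777, minus strand) are shown because these 3 genes rose in Molm13 alone.
AK4: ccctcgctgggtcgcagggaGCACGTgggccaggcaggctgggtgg
ENO2: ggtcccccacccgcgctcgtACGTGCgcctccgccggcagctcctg
GBE1: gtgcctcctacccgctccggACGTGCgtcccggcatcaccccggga
ENO2, the neuronal enolase, changed by 2.46 in Molm13 and −0.35 in THP1, and GBE1, the glycogen branching enzyme, by 1.11 and −0.29.

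Replication-type histone genes and a pair of creatine genes were among the largest rises in Molm13 alone. Of 26 replication-type histone genes tested, 15 rose in Molm13 and none in THP1, where 2 fell, and the median log2 fold change was 1.88 in Molm13 and −0.12 in THP1. Only 13 of the 26 had an RPKM above 1 in both lines, and a gene under that limit in a line could not be called there. The median difference was −2.14 and ran from −2.80 to −1.44 over the alternatives. HIST1H2AC went from 5.24 and 5.41 to 81.0 and 84.6 CPM in Molm13, and the THP1 libraries lay between 4.19 and 5.02 CPM (difference −3.96 ± 0.17, FDR 2.27e-36). HIST1H2BJ and HIST1H2BC, with levels of a few CPM, moved in opposite directions (2.10 and −0.85, and 1.96 and −0.84). Most replication-type histone mRNAs lack a poly(A) tail, so that a poly(A) library captures only their polyadenylated forms, and these genes have near-identical copies. SLC6A8, the creatine transporter, rose from 19.4 and 15.7 to 192 and 200 CPM in Molm13 and was at 8.94 to 11.5 CPM in THP1. CKB, brain creatine kinase, rose from 1.57 and 0.816 to 21.7 and 22.2 CPM in Molm13 and was at 8.03 to 9.15 CPM in THP1. GLUL, glutamine synthetase, rose by 1.10 in Molm13 and changed by −0.39 in THP1 (difference −1.49 ± 0.04, FDR 8.05e-54). Over the 17 genes of creatine, glutamine and urea metabolism tested, 5 differed with a higher fold change in Molm13 and 1 with a higher one in THP1.

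**Figure D2:**
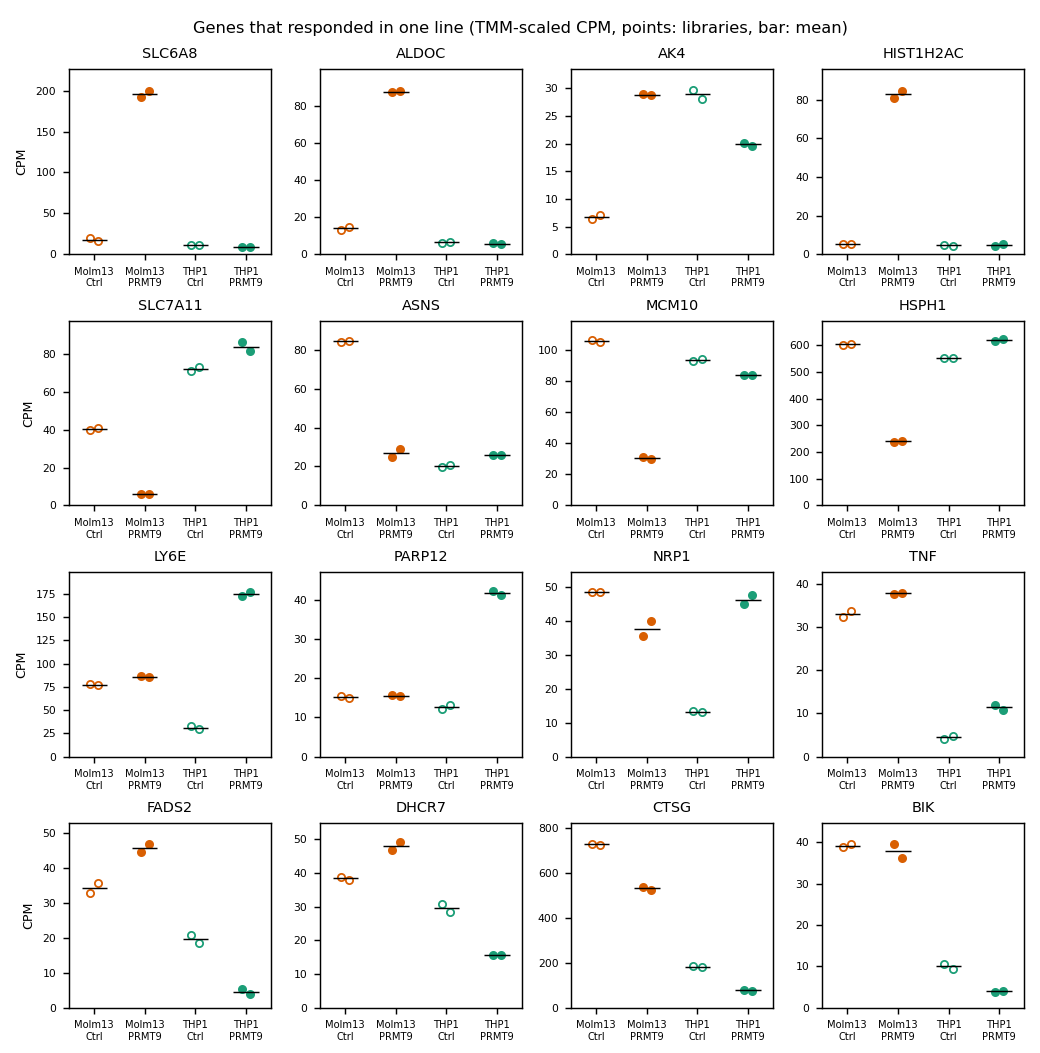
Each panel shows CPM in the 8 libraries for a gene that responded in a single line, with open points for shCtrl, filled points for shPRMT9, orange for Molm13 and green for THP1, and bars for the mean of 2 libraries. The first 8 genes changed in Molm13 alone, LY6E, PARP12, NRP1 and TNF rose in THP1 alone, and FADS2, DHCR7, CTSG and BIK fell in THP1 alone.

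Many genes of amino acid supply fell in Molm13, and few responded in THP1. Of 37 ATF4 targets tested, 19 fell and 2 rose in Molm13, while 2 fell and 3 rose in THP1. The response differed for 70.3% of them, with the higher fold change in THP1 for 22. The median log2 fold change was −0.78 in Molm13 and 0.13 in THP1. SLC7A11, the cystine-glutamate exchanger, fell from 40.1 and 41 to 6.29 and 6.05 CPM in Molm13, while in THP1 it stood at 70.9 and 73.3 against 86.5 and 81.5 (difference 2.93 ± 0.10, FDR 1.16e-44). ASNS, asparagine synthetase, fell from 83.8 and 84.7 to 25.1 and 28.9 CPM in Molm13 and stood at 19.9 and 20.9 against 25.7 and 25.8 in THP1. PSAT1, an enzyme of serine synthesis, fell by 1.58 in Molm13 and changed by 0.30 in THP1. CHAC1, which degrades glutathione, moved in opposite directions (−2.26 and 1.04), at levels from 0.375 to 4.19 CPM. Not every member followed. DDIT4, an inhibitor of mTORC1 that is also a HIF target, rose in Molm13 alone, from 371 and 369 to 951 and 956 CPM, and DDIT3 (CHOP) rose in Molm13 alone by 1.03 against 0.42.

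Protein production and folding genes shared this direction. Of 20 aminoacyl-tRNA synthetases, 7 fell in Molm13 alone and 10 differed, all with the higher fold change in THP1. MARS, the methionyl-tRNA synthetase, fell from 362 and 369 to 177 and 180 CPM in Molm13 and was at 162 to 186 CPM in THP1. Of 39 cytosolic chaperones tested, 12 fell in Molm13 alone and none responded in THP1, and 17 differed, all with the higher fold change in THP1. HSPH1, a nucleotide exchange factor of HSP70, fell from 601 and 606 to 237 and 243 CPM in Molm13 and stood at 553 and 553 against 618 and 622 in THP1 (difference 1.49 ± 0.04, FDR 1.75e-53). STIP1, which links HSP70 to HSP90, fell by 0.94 in Molm13 and changed by 0.12 in THP1. Of 27 endoplasmic reticulum chaperones and stress genes, 6 fell in Molm13 alone, among them HYOU1 (−1.09 and −0.03) and DNAJB11 (−1.17 and 0.13), whereas PPP1R15A, which reverses the stress block of translation, rose in both lines (1.52 and 0.84). The median difference of that list was 0.34, and 0.195 once trends with GC content and exon length were removed. Of 38 proteasome genes, 13 fell in Molm13 alone and 20 differed, all with the higher fold change in THP1. PSMD1, a base subunit of the cap, fell from 195 and 204 to 83.2 and 87.7 CPM in Molm13 and was at 182 to 208 CPM in THP1.

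Of the 36 lists, DNA replication held the most genes that fell in Molm13 alone. All 55 genes of DNA replication and nucleotide synthesis were expressed in both lines. Of them 38 fell in Molm13 and none responded in THP1, 34 fell in Molm13 alone, and the median log2 fold change was −0.88 in Molm13 and −0.04 in THP1. MCM10, which loads polymerase at origins, fell from 106 and 105 to 30.8 and 29.9 CPM in Molm13, while in THP1 it was 92.6 and 93.7 against 83.6 and 83.8, with groups that did not overlap but a change of −0.15 under the fold limit. CDC45, CLSPN and ORC6 fell in Molm13 by 1.5, 1.54 and 1.35, with changes of −0.13, −0.02 and 0.02 in THP1. Of 28 G1 and E2F genes tested, 11 fell in Molm13 alone. CDC25A, a phosphatase that activates CDK2, changed by −1.5 in Molm13 and 0.06 in THP1, and E2F1 by −1.41 and −0.24. E2F4, which acts mostly as a repressor in resting cells, fell by 0.62 in Molm13, and its rise of 0.57 in THP1 was just under the fold limit. CCNE2, a cyclin of S phase entry, fell in both lines (−1.60 and −0.65).

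Mitotic genes fell further in Molm13, and here THP1 was not flat. Of 60 tested, 38 fell in Molm13 and 1 in THP1, and 23 differed, all with the higher fold change in THP1. The median log2 fold change was −0.70 in Molm13 and −0.20 in THP1. CDC20, an activator of the anaphase-promoting complex, fell from 93.3 and 102 to 36.3 and 37.2 CPM in Molm13, whereas in THP1 it was 739 and 731 against 672 and 693 (difference 1.30 ± 0.05, FDR 3.12e-38). The cell cycle homology region was searched as TTTGAA on both strands of the promoter windows and was found in 36 of 52 mitotic genes (69.2%), beside 10.2% of genes tested and 107 of 796 genes that fell in Molm13 alone (13.4%). It is shown for CDC20 (chr1:43358896-43358941, plus strand) and ECT2 (chr3:172750591-172750636, plus strand), which both fell in Molm13 alone.
CDC20: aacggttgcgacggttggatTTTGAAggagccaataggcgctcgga
ECT2: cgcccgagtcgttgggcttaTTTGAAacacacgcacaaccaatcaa
ECT2, an activator of RhoA in cytokinesis, changed by −1.26 in Molm13 and −0.24 in THP1. The strings for interferon, HIF and cell cycle homology sites do not contain one another. In all, 11 strings were searched in these windows. The E2F string, in its forms TTT, GGC, GC and TTT, CCC, GC read without breaks, was found in 23 and 45 of 796 promoters of genes that fell in Molm13 alone (2.89% and 5.65%), beside 1.06% and 2.53% of genes tested. In the DNA replication list these forms were found in 6 and 11 of 47 promoters (12.8% and 23.4%). The other strings were searched as TTC, GAA and TTC spaced by 2 bases for HSF1 (5 of 35 chaperones, 0.335% of genes tested), TGATG joined to CAA for ATF4 (1 of 29 targets, 0.567%), TCAC, 1 base and CCAC for SREBP (1 of 21 sterol genes, 1.11%), TGAC, 3 bases and GCA for NRF2 (1 of 20 targets, 2.96%), GGGAA, 1 base and TTCC for NF-kB (5 of 24 targets, 0.473%) and CCAAT (16 of 21 sterol genes, 36.7%). The ATF4 string was also found in 6 of 16 promoters of aminoacyl-tRNA synthetases (37.5%).

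DNA repair and DNA sensing genes belonged to the same block. Of 46 tested, 14 fell in Molm13 alone and 16 differed with a higher fold change in THP1. ATR, the kinase of the replication checkpoint, fell from 106 and 104 to 50.6 and 50.2 CPM in Molm13 and stood at 77.2 and 80.4 against 95.2 and 96.8 in THP1 (difference 1.34 ± 0.06, FDR 8.77e-35). XRCC2, BRCA1 and BRCA2 fell in Molm13 by 1.55, 0.99 and 0.85 and changed by −0.20, 0.03 and 0.24 in THP1. TMEM173, which encodes the DNA sensor adaptor STING, was called the other way, with a rise in Molm13 alone (0.62, against −0.06).

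Ribosomal protein genes and ribosome assembly genes differed between the lines with opposite signs. Of 79 cytosolic ribosomal protein genes, none rose in either line, 3 fell in Molm13 and none in THP1, and 18 differed with the higher fold change in Molm13, each without passing the limits within a line. Their median log2 fold change was 0.28 in Molm13 and −0.20 in THP1, and 71 of 79 had a higher fold change in Molm13 at an FDR below 0.05 when no fold limit was set. RPS6 stood at 2076 and 2263 against 2805 and 2759 CPM in Molm13, and at 1560 and 1657 against 1215 and 1208 in THP1, so the groups did not overlap in either line. RPL36A was the only ribosomal protein gene called with the higher fold change in THP1 and fell in Molm13 (−0.81). By contrast, 17 of 64 ribosome biogenesis and RNA polymerase I genes fell in Molm13 alone and 28 differed, all with the higher fold change in THP1. UTP20, a processome subunit, fell from 255 and 259 to 96.0 and 96.9 CPM in Molm13 and stood at 89.6 and 92 against 82.8 and 87.4 in THP1.

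Mitochondrial and splicing lists held few called differences but shifted toward higher fold changes in THP1. The response differed for 7.69% of 78 nuclear genes of oxidative phosphorylation, 13.3% of 60 splicing factors and 15.6% of 77 mitochondrial ribosomal proteins, each below the 17.8% of all genes tested. At an FDR below 0.05 without a fold limit, 46, 44 and 43 of them were higher in THP1 and 7, 7 and 4 in Molm13. Their median differences were 0.21, 0.28 and 0.26, beside 0.03 over all genes tested. Translation factors were at 20.4% of 54. Within these lists NDUFS6, a complex I subunit, changed by −1.53 in Molm13 and −0.39 in THP1, CYCS, cytochrome c, by −1.15 and −0.08, and SNRPG, a core spliceosomal protein, by −1.05 and −0.03.

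**Figure D3:**
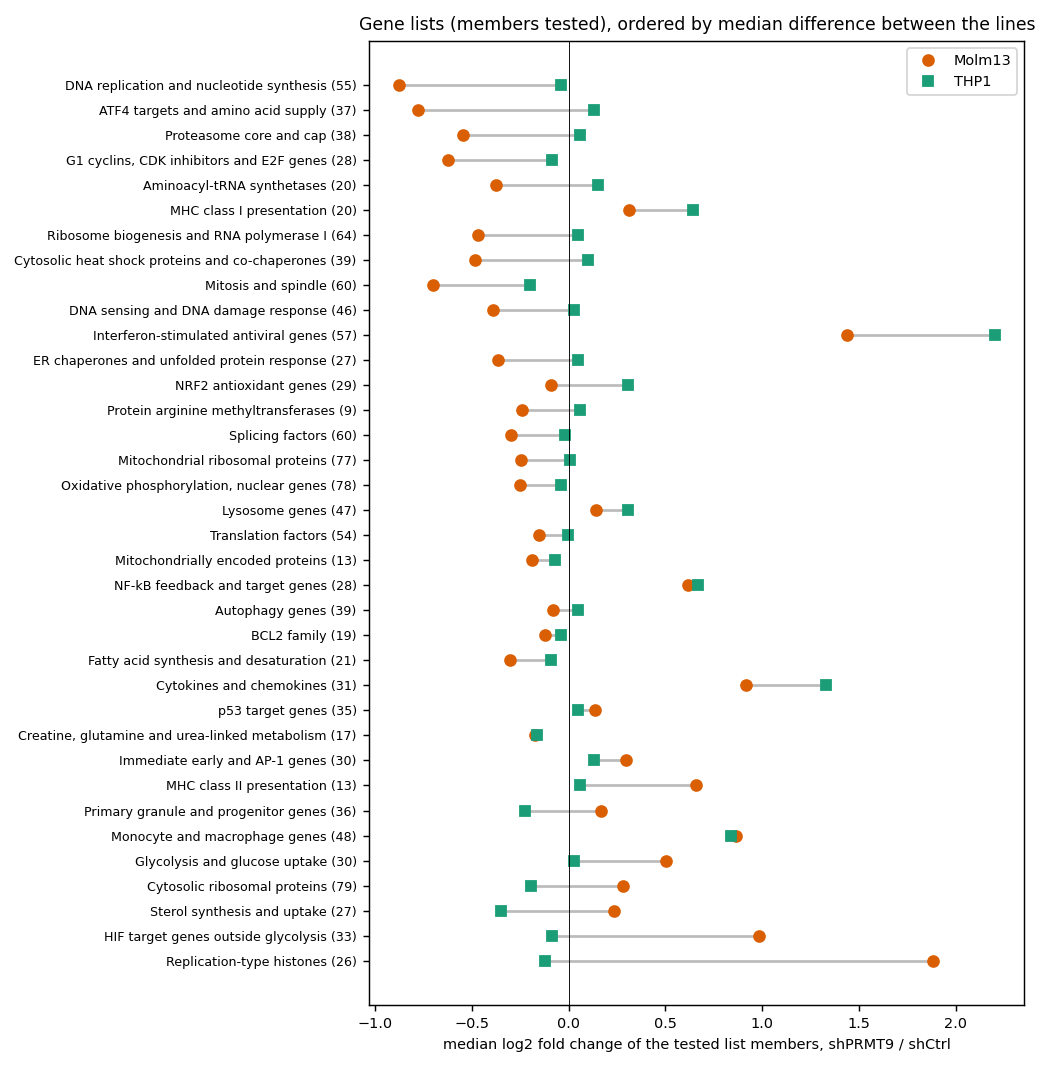
For each of 36 gene lists, ordered by the median difference, the median log2 fold change of the members tested is given on the x axis for Molm13 (orange circles) and THP1 (green squares). DNA replication genes at the top have medians of −0.88 and −0.04, and replication-type histones at the bottom have 1.88 and −0.12.

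Sterol genes moved away from each other in the lines. Of 27 tested, 6 rose in Molm13 and none in THP1, 7 fell in THP1 and none in Molm13, and 12 differed, all with the higher fold change in Molm13. The median log2 fold change was 0.23 in Molm13 and −0.35 in THP1 (median difference −0.58, beside 0.03 over all genes tested). DHCR7, the last reductase of cholesterol synthesis, fell in THP1 alone, from 30.8 and 28.3 to 15.8 and 15.7 CPM, and stood at 38.9 and 37.9 against 46.8 and 49.1 in Molm13 (difference −1.23 ± 0.10, FDR 1.12e-20). LSS, lanosterol synthase, changed by −0.60 in THP1 and by 0.57 in Molm13, just under the fold limit. TM7SF2, a sterol reductase, rose from 4.50 and 4.79 to 13.2 and 12.5 CPM in Molm13 and fell from 9.65 and 8.07 to 4.75 and 5.58 in THP1. MYLIP, a ligase that degrades the LDL receptor and is induced by LXR, moved in the same opposite way, from 108 and 114 to 304 and 312 CPM in Molm13 and from 21.6 and 20.6 to 14 and 12.9 in THP1. ABCA1, the cholesterol exporter and another LXR target, rose in Molm13 alone (0.82, against −0.28).

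Fatty acid genes had no common direction. Of 21 tested, 4 differed in favor of THP1 and 6 in favor of Molm13, and 4 fell in THP1 alone. FADS2, a fatty acid desaturase, fell from 20.9 and 18.7 to 5.27 and 3.85 CPM in THP1 and stood at 33.0 and 35.6 against 44.7 and 46.8 in Molm13 (difference −2.53 ± 0.13, FDR 1.29e-32). SREBF1, the transcription factor of this program, fell in THP1 alone (−1.06, against −0.13), as did SCD, stearoyl-CoA desaturase (−1.24, against −0.43 in Molm13). ACSL1, an acyl-CoA synthetase, rose in THP1 alone (1.19, against 0.02). ELOVL6 was called with a difference of 1.67 ± 0.70 (FDR 0.0466), but it was below 1 CPM in THP1 and the call was lost under 11 of the alternatives.

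NRF2 targets held 3 of the 14 genes that fell in Molm13 and rose in THP1. Of 29 tested, 8 rose in THP1 and none fell, whereas 4 rose and 6 fell in Molm13, and 10 differed in favor of THP1 and 3 in favor of Molm13. GCLM, the regulatory subunit of glutathione synthesis, went from 40.2 and 37.9 to 23.9 and 24.2 CPM in Molm13 and from 85.5 and 83.9 to 147 and 135 in THP1 (difference 1.43 ± 0.08, FDR 1.21e-30). ME1, the NADPH-producing malic enzyme, went from 12.9 and 11.3 to 6.35 and 5.96 CPM in Molm13 and from 30.8 and 30.8 to 51.0 and 54.0 in THP1. PIR, pirin, changed by −0.62 in Molm13 and 1.02 in THP1. NQO1, a quinone reductase, rose by 0.91 in THP1, and its change of −0.56 in Molm13 was just under the fold limit. HMOX1, heme oxygenase, rose in both lines with the larger change in THP1 (1.83 and 3.49). The exceptions were TXNIP, the inhibitor of thioredoxin, which rose in Molm13 alone (1.56 against 0.43), and BLVRB and CAT, which were also higher in Molm13 (0.97 against 0.31, and 0.58 against −0.11).

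The 64 genes that moved in opposite directions did not come from a single list. The largest difference among the 50 that rose in Molm13 and fell in THP1, with a mean of at least 20 counts in each line, was that of CERCAM, a cell adhesion protein. Its CPM went from 4.07 and 3.47 to 24.2 and 20.2 in Molm13 and from 55.8 and 49.9 to 33.9 and 34.1 in THP1 (difference −3.18 ± 0.13, FDR 7.03e-38). CAV1, the caveolae protein caveolin, changed by 1.84 in Molm13 and −0.80 in THP1, and CD300A, an inhibitory receptor of myeloid cells, by 1.74 and −0.80. C11orf21 (1.92 and −0.96) and TSPAN32 (1.46 and −1.02) are neighbors on chromosome 11 and lie on opposite strands, and whether the counting used strand is not given in the sources used here. Of the 14 genes in the other direction, SLC43A2, an amino acid transporter, went from 13.3 and 11.9 to 7.83 and 8.21 CPM in Molm13 and from 7.51 and 5.61 to 14.9 and 13.6 in THP1. PNPT1, a mitochondrial RNA exonuclease that interferon induces, went from 121 and 116 to 58.6 and 62.1 CPM in Molm13 and from 102 and 107 to 166 and 168 in THP1 (difference 1.65 ± 0.06, FDR 8.89e-44). MNDA, a nuclear protein of myeloid cells, changed by −0.97 and 0.61. Chosen after their values were seen, FLNA, filamin A, was the most abundant gene that rose in Molm13 and fell in THP1 (0.92 and −0.64), CCNG2 changed by 1.33 and −1, and DEPTOR, an mTOR inhibitor, by 1.26 and −0.83.

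**Figure D4:**
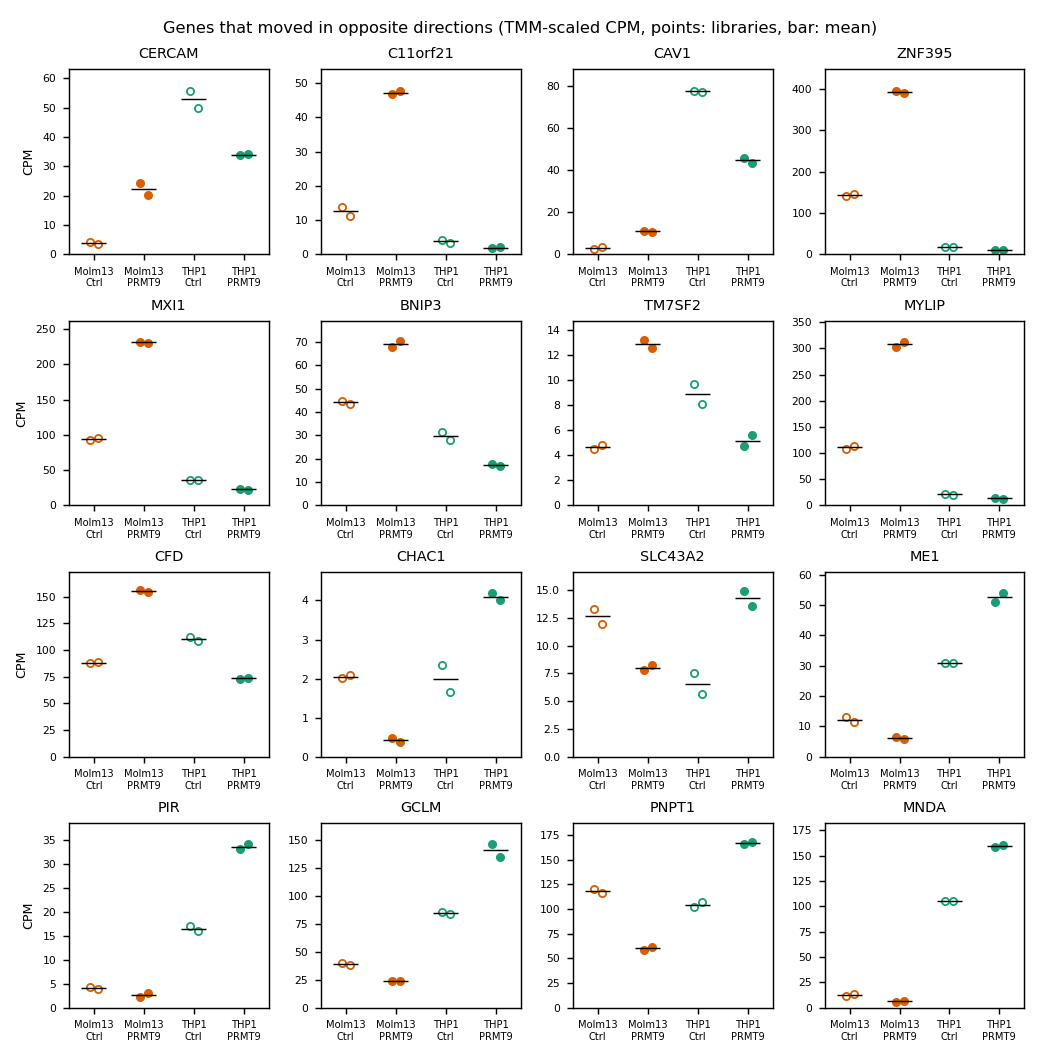
Each panel shows CPM in the 8 libraries for a gene that moved in opposite directions, with open points for shCtrl, filled points for shPRMT9, orange for Molm13 and green for THP1, and bars for the mean of 2 libraries. The first 9 genes rose in Molm13 and fell in THP1, the other 7 did the reverse, and in no panel do the shCtrl and shPRMT9 points of a line overlap.

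Genes outside these functional lists also responded in THP1 alone. NRP1, a coreceptor for semaphorins and VEGF, rose from 13.5 and 13 to 44.8 and 47.5 CPM in THP1 and stood at 48.5 and 48.6 against 35.4 and 39.9 in Molm13 (difference 2.16 ± 0.09, FDR 5.18e-37). PAX5, the B-lineage transcription factor, rose from 2.49 and 3.11 to 11.9 and 11.2 CPM in THP1 and was at 38.5 to 42.4 CPM in all Molm13 libraries. IL15RA, the receptor chain that presents interleukin 15, rose in THP1 alone (2.15 against 0.26), and GPR84, a receptor for medium-chain fatty acids, did so by 1.47 against −0.25. Among the falls in THP1 alone were ADGRG5, an adhesion receptor (−1.81 against 0.49), and SPNS3 (−1.45 against 0.16). Outside the lists, EHD2, a membrane-remodeling ATPase, rose in Molm13 alone, from a mean of 0.273 to 5.61 CPM, and GPR180 fell in Molm13 alone (−2.10 against −0.32).

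Some single-line responders were hardly expressed in the other line. In THP1, CCL2, a monocyte chemokine, went from 22 and 18 to 394 and 343 counts, and the Molm13 libraries held 0 to 2 counts. Its call was lost without Molm13 shCtrl replicate 1 and without Molm13 shPRMT9 replicate 2. MMP9, a matrix protease, went from 17 and 12 to 207 and 201 counts in THP1 and from 4 and 5 to 16 and 13 in Molm13, and its call was lost without Molm13 shCtrl replicate 2. GBP5, a guanylate-binding protein, rose in both lines by fold, from 33 and 34 to 141 and 161 counts in Molm13 and from 71 and 72 to 833 and 740 in THP1, and was below an RPKM of 1 in Molm13. In Molm13, CCL4L2 went from 1 and 1 to 38 and 37 counts, and its call was lost without THP1 shCtrl replicate 2. It is a near-identical copy of CCL4.

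Cell death, p53, lysosome and methyltransferase lists held both directions. Of 19 BCL2 family genes tested, 6 differed with the higher fold change in Molm13, among them the BH3-only genes BMF (1.47 against 0.14) and BIK, which fell in THP1 alone from 10.6 and 9.40 to 3.87 and 4.13 CPM. PMAIP1, which encodes NOXA, fell in Molm13 alone (−0.96 against 0.21). Of 35 p53 targets, 7 differed in favor of THP1 and 5 in favor of Molm13, and the median difference was −0.06. Of 47 lysosome genes, 4 rose in THP1 alone, 3 rose in Molm13 alone and 2 fell in Molm13 alone. The shares of these classes over all genes tested were 0.824%, 5.08% and 5.42%. Among the lysosome genes that fell in Molm13 alone was ARSB, arylsulfatase B (−1.33 against 0.31). Of 39 autophagy genes, 4 rose in Molm13 alone, and 15.4% differed, below the 17.8% of all genes tested. Of 30 immediate early genes, 5 differed with the higher fold change in Molm13, among them JUN (0.83 against 0.00), and 4 with the higher one in THP1, among them FOSL1 (0.84 against −0.11). Of 9 protein arginine methyltransferases and cofactors tested, PRMT2 rose in Molm13 alone, from 30.6 and 30.9 to 90.0 and 86.6 CPM, against 34.7 to 39.6 CPM in all THP1 libraries. PRMT3, PRMT6 and WDR77, the cofactor of PRMT5, fell in Molm13 alone by 0.82, 0.90 and 1.03, with changes of 0.06, −0.07 and −0.09 in THP1.

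**Figure D5:**
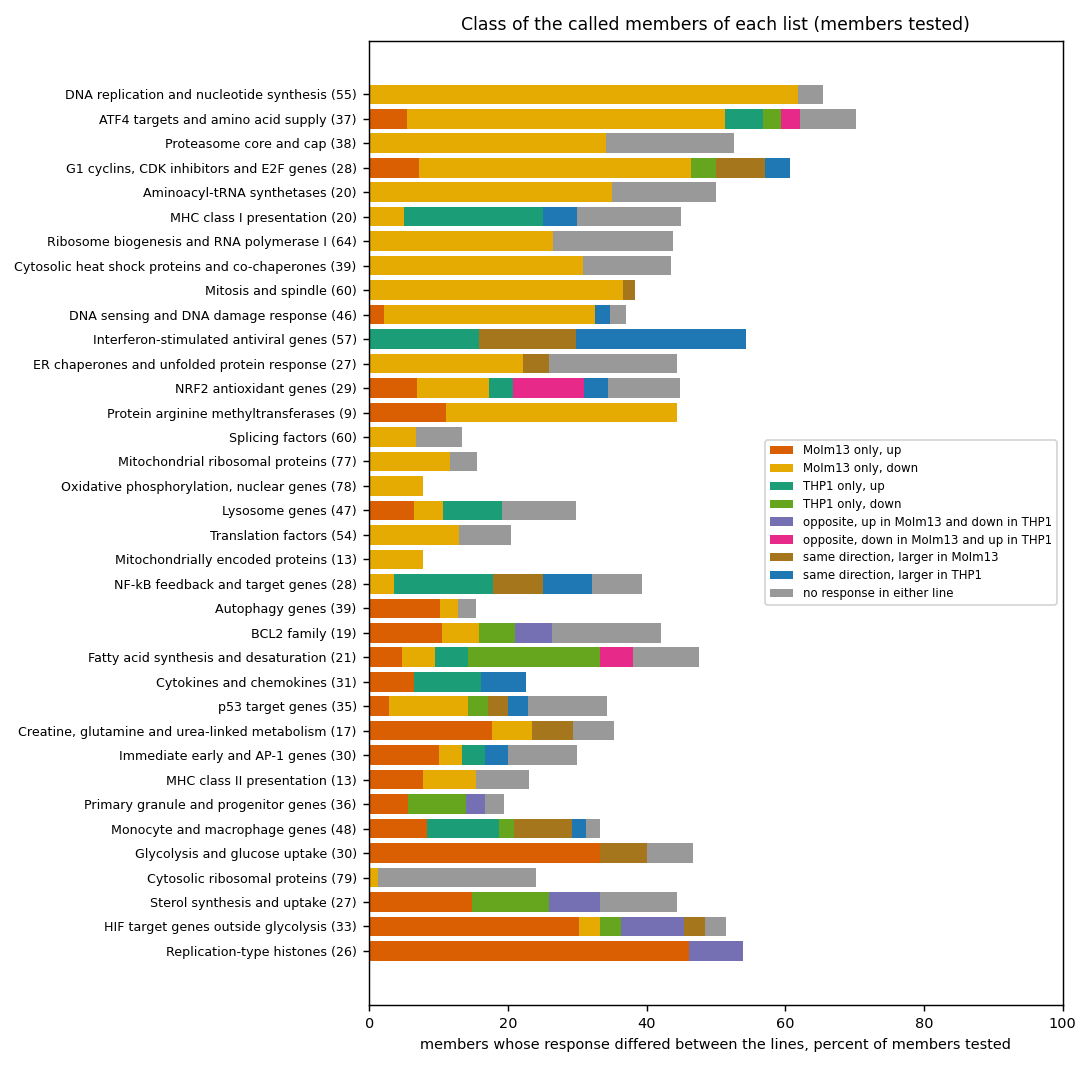
The bars give, for each of 36 gene lists, the percentage of members tested whose response differed between the lines, colored by class, with the number tested in parentheses. Of 55 DNA replication genes 34 fell in Molm13 alone, of 79 ribosomal protein genes 18 differed without passing in either line, and interferon-stimulated genes hold 14 members with the larger rise in THP1 and 8 with the larger rise in Molm13.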

How the data were processed

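Poly(A) RNA was sequenced from both lines with either shRNA, with 2 libraries per group. Per the labels, the authors used TopHat2 2.0.8, HTSeq 0.11.2, edgeR 3.30.3 and hg38, and they deposited read counts per gene, whole numbers without normalization, in a table for each line. Strand setting and handling of shared reads are not given in the sources used here. Symbols, coordinates and exon lengths come from the Molm13 table and were joined to THP1 by gene identifier.

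All 8 libraries (18720950 to 27356870 counts, which limit precision for genes of a few counts) were fitted together in R 4.3.3 with edgeR 4.0.16 (4 group means, TMM, filterByExpr, quasi-likelihood test, Benjamini-Hochberg adjustment over 19288 genes). Standard errors are the absolute log2 value divided by the square root of F. CPM values are scaled by TMM factors. RPKM uses exon length.

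The members, lists and limits were chosen with earlier results of these data known. Genes named are PRMT9, the 8 largest differences per class with at least 20 counts on average in each line, up to 6 called members per list and direction, 5 per line that the other line did not express, and marker genes. For any other gene the text says that it was picked with its values in view. Promoters are from RefSeq (GRCh38.p14), found for 11636 genes tested, and GC content is from GENCODE release 29. The test was tried on simulated counts. Alternatives used other scalings, filters, limits, DESeq2 1.42.0, limma 3.58.1, thinning, a replicate block and left-out libraries. A few genes that the rule names are not reported here.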

Additional observations from a re-analysis of the deposited data

Results flagged for a closer look

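A difference between the lines in the response to shPRMT9 was called for 3428 genes by the test of the interaction, and for 64 of them the response went in opposite directions with both lines past their limits. Of the genes named for this pattern, the log2 difference (THP1 minus Molm13) was −3.18 for CERCAM, −2.95 for HIST1H2BJ, −2.88 for C11orf21, −2.82 for RNF175, −2.80 for HIST1H2BC, −2.64 for CAV1, −2.54 for CD300A and −2.48 for TSPAN32, which rose in Molm13 and fell in THP1. It was 3.30 for CHAC1, 1.88 for RP11-138I1.4, 1.78 for SLC43A2, 1.75 for ME1, 1.65 for PNPT1, 1.64 for PIR, 1.58 for MNDA and 1.57 for S1PR3, which fell in Molm13 and rose in THP1.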

How the results depend on the processing

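Of 306 called genes named by the rule, 304 kept the call with DESeq2's size factors, 300 with limma's voom, 291 with DESeq2, 295 to 301 when 1 library was left out and 191 with a fold limit of 2. None changed sign in any alternative in which it was tested (260 were with at least 1 CPM in all libraries, 297 with each line fitted alone and 304 after thinning), and FLNA, CCNG2 and DEPTOR, chosen later, were not in this check. When 1 library was left out, 3264 to 3382 genes differed, 1508 to 1567 higher in THP1 and 1710 to 1815 higher in Molm13, and the genes that fell in Molm13 and rose in THP1 numbered 8 to 13 (8 without Molm13 shCtrl replicate 1, 9 without Molm13 shPRMT9 replicate 1). They also numbered 8 with DESeq2, after thinning to the shallowest library, and with at least 1 CPM in all libraries, where 375 genes responded in THP1 and not in Molm13. The median difference over genes expressed in both lines was 0.07 with TMM, 0.05 with DESeq2's size factors and 0.03 with library size alone, and 50.6%, 47.1% and 44.7% of the calls were higher in THP1. With a fold limit of 2, 1340 genes differed (529 higher in THP1, 811 in Molm13), 1180 responded in Molm13 and not in THP1, 269 the reverse and 6 in opposite directions. The classes then held 405 and 228 genes up and down in Molm13 alone, 70 and 35 in THP1 alone, 4 and 2 opposite, 11 and 9 of larger change in Molm13 or THP1, and 576 in neither line. With the FDR alone, 7542 differed (4263 and 3279), 5262 responded in Molm13 and not in THP1, 1463 the reverse and 1469 in opposite directions, and the classes held 1900 down in Molm13 alone, 416 and 354 up and down in THP1 alone, 670 and 799 opposite, 1349 and 325 of larger change in Molm13 or THP1 and 266 in neither. Without the RPKM limit, 922 responded in THP1 and not in Molm13, 144 in opposite directions (118 and 26), and 53 moved more in THP1. The median difference of the BCL2 family, 0.05, turned to −0.00324 after thinning, −0.00792 with GC content and length trends subtracted (an alternative chosen after seeing the data), −0.0523 without Molm13 shCtrl replicate 1, −0.0128 without THP1 shCtrl replicate 2 and −0.0077 without THP1 shPRMT9 replicate 2 (at most 0.0421 without any 1 library, that of THP1 shCtrl replicate 1). That of autophagy genes, 0.07, turned to −0.0251 without THP1 shPRMT9 replicate 1 (at most 0.062, without Molm13 shPRMT9 replicate 1), and the causes were not tested. The medians of cytokines and chemokines (0.0375) and of fatty acid genes (0.0386) also changed sign. Their lowest values over the alternatives were −0.217 and −0.0741. With a replicate block 3412 genes differed (1732 and 1680). Deviations of same-numbered libraries correlated at −0.00867 in Molm13 and −0.0632 in THP1. With 2 libraries per group these values cannot show whether same-numbered libraries shared a culture or whether the numbers mark different shRNAs.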
